A study of Mus musculus with 4 samples.

Results

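Retinoids are vitamin A and its derivatives, and the cells described here are granulocyte/monocyte progenitors (GMP), bone marrow cells that give rise to granulocytes and monocytes. The retinoid group described here holds 8 genes, chosen by gene symbol out of 12393 genes on the probe sets that both array types share. Dhrs3 was chosen because it was higher in Icsbp-deficient cells, so its values are a description with no test, and the others were added for their roles in retinoid metabolism and signalling. The 8 genes are read by 17 shared probe sets, of which 8 passed a filter on low signal and 9 did not, and by 1 probe set that only the larger array type holds. Rara and Tgm2 had no probe set above the filter, which left 6 genes with a tested probe set.

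Icsbp (gene symbol Irf8) belongs to the interferon regulatory factors, and it is known to steer myeloid progenitors towards monocytes rather than granulocytes. The study compared sorted GMP from Icsbp-deficient mice (2 arrays analysed here, each from the pooled marrow of at least 8 animals) with GMP from wild type mice (2 arrays, each from at least 10), all 10 to 16 weeks old. Each genotype was read once on the 430A array and once on the larger MOE430_2 array. For wild type on 430A the label gives C57/Bl6 - S129Ola, a mixed background, and no genotype, and the array was placed with the wild type through the series' design text. The sources used here do not give the strain of the other arrays, the deleted part of the gene or the labelling kit of the wild type 430A array, where the Icsbp-deficient 430A array had an ENZO kit. Each value is thus an average over pooled animals and says nothing of the spread between single mice.

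Cells take up retinol, store it as esters, and oxidise it through retinal to retinoic acid. Retinoic acid binds the retinoic acid receptors (RARs), which act on DNA as pairs with the retinoid X receptors (RXRs), and it is known to drive the maturation of granulocytes, which is why it is used against acute promyelocytic leukaemia. Short-chain dehydrogenases and reductases can run the step between retinol and retinal either way, and several genes of the pathway are themselves induced by retinoic acid.

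Signals are given after scaling to a 2% trimmed mean of 500 on every array and normalization of the arrays within a type. The array types were normalized separately, so levels on different types stand side by side and were not tested against each other. Log2 ratios are Icsbp-deficient over wild type, after an offset of 50 was added to the signal, which understates the change of dim probe sets. Standard errors (SE) are limma's moderated ones over n = 2 ratios, 1 from each array type, and adjusted p-values are limma's with Benjamini-Hochberg adjustment over all 13576 tested probe sets. At 0.05, 438 of 7820 tested genes passed (5.6%), with 3.26% rising and 2.34% falling. Irf8 itself had 2778 (430A) and 2732 (MOE430_2) in Icsbp-deficient GMP, against 3054 and 4887 in wild type GMP, at 1 probe set (log2 ratio -0.48 ± 0.16 SE, limma adjusted p = 0.124). Its other probe set had 3268 and 1889 in Icsbp-deficient GMP, against 3070 and 1846 in wild type GMP (0.06 ± 0.12 SE, limma adjusted p = 0.832). Transcript of the targeted gene was thus read under both genotypes, and since the deleted part is not known here, these probe sets do not check the labels.

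The promoter of Dhrs3, the gene with the widest difference in the group, is shown because Dhrs3 is a known target of retinoic acid, beside that of Rarg, a receptor gene of the group whose promoter holds a half-site for retinoid receptors. The sequences are from RefSeq on build GRCm38.p6, 5′ to 3′ on the strand of the gene. For both genes the 250 bases before the most upstream annotated start are given. Capitals mark AGGTCA, the half-site, which in Rarg lies on the opposite strand and was not found in the Dhrs3 stretch. The Dhrs3 stretch is at chr4:144892577-144892826 (plus strand) and the Rarg stretch at chr15:102257523-102257772 (minus strand).
Dhrs3: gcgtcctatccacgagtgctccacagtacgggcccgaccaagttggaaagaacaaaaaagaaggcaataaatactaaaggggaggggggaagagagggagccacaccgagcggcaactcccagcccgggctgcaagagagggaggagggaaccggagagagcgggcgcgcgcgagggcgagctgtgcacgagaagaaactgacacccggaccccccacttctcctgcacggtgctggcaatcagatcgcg
Rarg: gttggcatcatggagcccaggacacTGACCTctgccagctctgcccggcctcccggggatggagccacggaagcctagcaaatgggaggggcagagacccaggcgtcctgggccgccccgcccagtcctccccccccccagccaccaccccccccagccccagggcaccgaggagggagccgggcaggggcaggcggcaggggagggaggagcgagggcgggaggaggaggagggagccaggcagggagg

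RefSeq windows of 300 bases, running from 250 before to 50 after an annotated start, were found for 7 of the 8 genes, 16 windows in all. AGGTCA stood on either strand in 4 of the 16, 1 each of Rara, Rarg, Rxra and Rdh11, against 16.3% of all 32851 windows, and AGTTCA, a related half-site, in 2 of the 16, against 14% of all. Direct repeats of these half-sites, each also allowed to begin with G, and spaced by 5 or by 2 bases as in classical retinoic acid response elements, stood in 0 of the 16, and in 0.0974% and 0.268% of all windows. None of the 3 Dhrs3 windows held AGGTCA or AGTTCA. A direct repeat of GAAA with 2 bases between, of the kind that interferon regulatory factors are known to bind, was searched on both strands. It stood in 3 of the 16 windows and in 3.44% of all. These were the overlapping windows at the downstream Dhrs3 starts, which share 1 match on the opposite strand, and 1 Rarg window. The composite site of Ets factors with interferon regulatory factors, in which the first core of that repeat is GGAA, stood in 0 of the 16 and in 2.72% of all. The Dhrs3 repeat is shown in capitals with 10 bases on each side, the whole stretch lying at chr4:144892941-144892970 (plus strand).
Dhrs3 repeat: ttttccccccTTTCTTTTTCtggagaaagt
These are matches of letters in the reference, and binding was not measured.

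Dhrs3 encodes a short-chain dehydrogenase/reductase that turns retinal back into retinol, and so draws on the supply of retinoic acid. Its single probe set, 1448390_a_at, had a signal of 857 on the 430A and 715 on the MOE430_2 array in Icsbp-deficient GMP, against 205 and 174 in wild type GMP. On each array type the Icsbp-deficient value lay above the wild type value. Ratios of the same sign on both types were found for 62.8% of all tested probe sets. The log2 ratio was 1.83 on the 430A arrays and 1.77 on the MOE430_2 arrays, with a mean of 1.80 ± 0.04 (SD, n = 2 ratios), which is 3.48-fold. With the values as deposited, which were not on a common scale on the 430A arrays, the log2 ratios were 0.41 and 1.37 (mean 0.89). By mean ratio of the normalized signals it ranked 11 among 7820 tested genes, 12 on the 430A arrays alone and 16 on the MOE430_2 arrays alone. In RNA from a bulk sort, a higher share of cells that express the gene and more transcript per cell cannot be told apart.

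**Figure D1:**
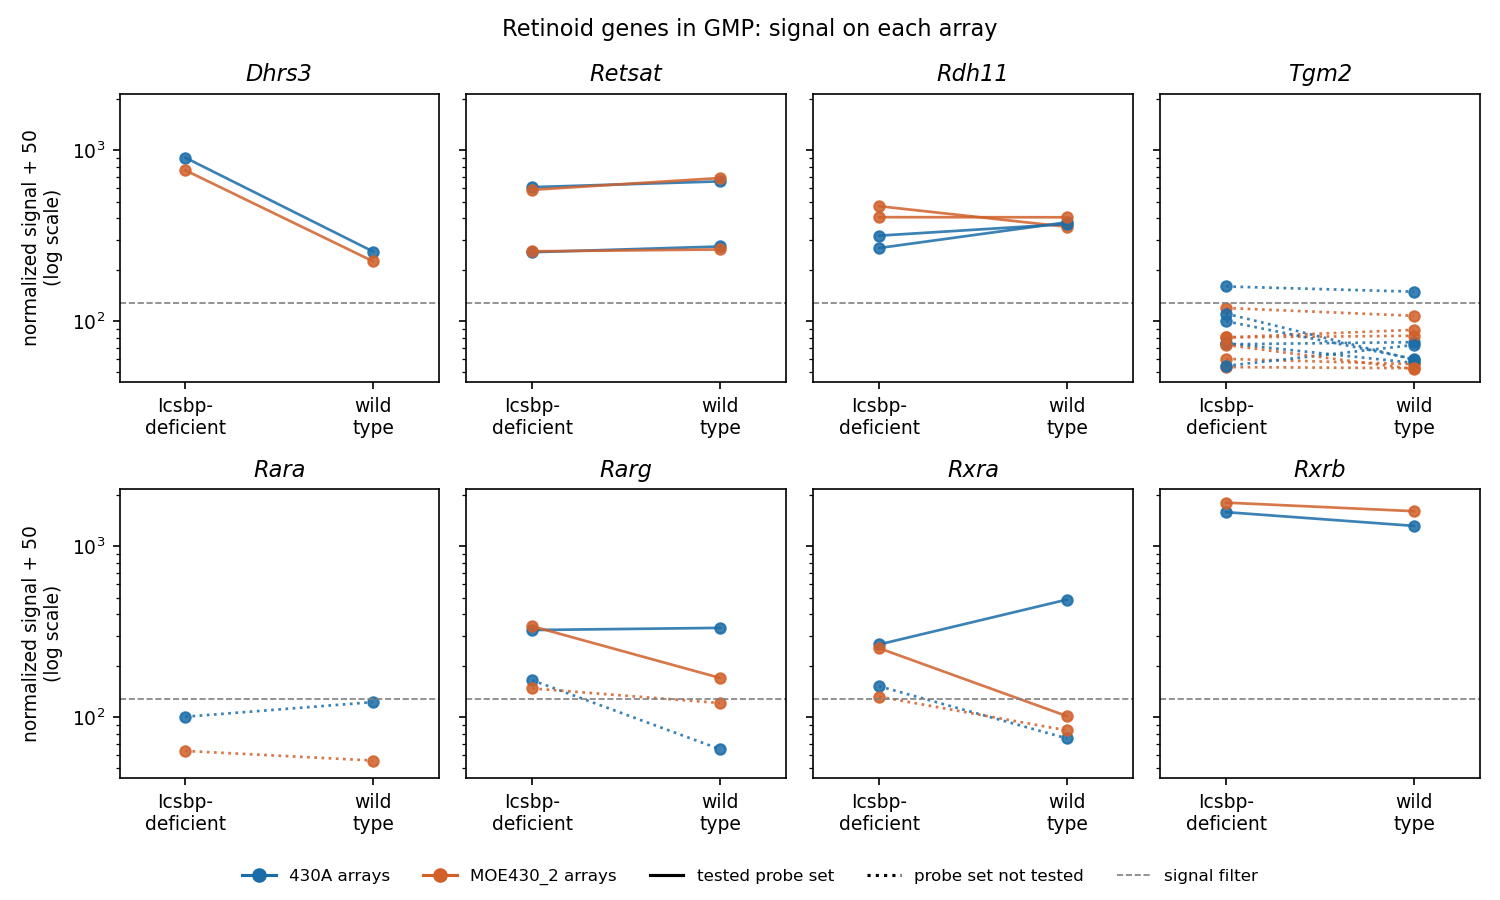
Normalized signal plus the offset of 50 (log scale) of every shared probe set of the 8 retinoid genes in Icsbp-deficient (left) and wild type (right) GMP, with a line joining the arrays of a type. Solid lines are tested probe sets, dotted lines are probe sets that were not tested for low signal, and the dashed line is the filter, a mean over the 4 arrays of 76.8 before the offset. Dhrs3 is the gene whose lines slope clearly and in parallel, while those of Rxra cross.

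Of the other enzymes of the group, Retsat and Rdh11 did not pass limma's test. Retsat encodes the retinol saturase, which removes retinol from the path to retinoic acid. At its brighter probe set, 1424715_at, the signal was 559 and 537 in Icsbp-deficient GMP (430A, then MOE430_2), against 608 and 639 in wild type GMP. Its other probe set, 1424716_at, had 203 and 206 in Icsbp-deficient GMP, against 224 and 213 in wild type GMP. All ratios were slightly below 0, and the mean log2 ratios of -0.17 ± 0.15 SE (limma adjusted p = 0.607) and -0.07 ± 0.18 SE (limma adjusted p = 0.868) were close to their errors. The 95% interval at the brighter probe set ran from -0.50 to 0.16.

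Rdh11 encodes a retinal reductase of the endoplasmic reticulum, which like Dhrs3 is known to favour retinol as its product. Its probe set 1449209_a_at had a signal of 267 and 356 in Icsbp-deficient GMP, against 320 and 356 in wild type GMP, a mean log2 ratio of -0.11 ± 0.17 SE (limma adjusted p = 0.774). The other, 1418760_at, had 218 and 421 in Icsbp-deficient GMP, against 329 and 307 in wild type GMP. There the 430A ratio was -0.50 and the MOE430_2 ratio 0.40, so the array types gave opposite directions and the mean was -0.05 ± 0.22 SE (limma adjusted p = 0.932). The 95% interval at 1449209_a_at ran from -0.48 to 0.26. The ratios of Retsat and Rdh11 were not tested against that of Dhrs3, which was chosen for its rise.

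The receptors were read with very unequal certainty. Rxrb, a retinoid X receptor found in most tissues, was the receptor read furthest above the filter, with 1537 and 1754 in Icsbp-deficient GMP, against 1268 and 1557 in wild type GMP. The log2 ratios of 0.27 (430A) and 0.17 (MOE430_2) had a mean of 0.22 ± 0.13 SE (limma adjusted p = 0.417), with a 95% interval from -0.07 to 0.51. The array types gave the same direction for Rxrb, but the difference did not pass the test.

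Rxra, the retinoid X receptor best known in myeloid cells, gave opposite directions on the array types at its tested probe set. At 1425762_a_at the signal was 216 and 203 in Icsbp-deficient GMP, against 438 and 51.2 in wild type GMP. The Icsbp-deficient arrays differed little from each other, while the wild type arrays lay far apart on either side of them. The 430A arrays gave a log2 ratio of -0.87 and the MOE430_2 arrays one of 1.32, and the mean of 0.22 ± 0.39 SE did not pass (limma adjusted p = 0.811). The dimmer probe set 1454773_at, not tested, had 102 and 81.6 in Icsbp-deficient GMP, against 25.0 and 33.5 in wild type GMP, with ratios of 1.02 and 0.66. A further Rxra probe set, 1430497_at, is only on the MOE430_2 array and had 40.1 in Icsbp-deficient and 9.87 in wild type GMP, both under the 59.4 that marks the same filter on that array alone. The direction of Rxra on the 430A arrays therefore depended on the probe set.

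Rarg, a retinoic acid receptor known for its part in the upkeep of blood stem cells, also gave ratios that differed between the array types. Its probe set 1419415_a_at had 274 and 290 in Icsbp-deficient GMP, against 283 and 120 in wild type GMP. The log2 ratios were -0.04 (430A) and 1.01 (MOE430_2), and the mean of 0.48 ± 0.24 SE did not pass (limma adjusted p = 0.323), with a 95% interval from -0.05 to 1.02. The probe set 1419416_a_at, under the filter, had 114 and 97.1 in Icsbp-deficient GMP, against 14.8 and 70.8 in wild type GMP, with ratios of 1.34 and 0.28. Here the 430A arrays gave the wider difference, the reverse of the first probe set. At both Rarg probe sets, as at 1425762_a_at of Rxra, the Icsbp-deficient signals lay closer together across the array types than the wild type signals. The part of array type, or of single wild type libraries, in these ratios was not tested.

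Rara, the retinoic acid receptor fused to PML in acute promyelocytic leukaemia, lay under the filter. Its probe set 1450180_a_at had 50.5 and 13.3 in Icsbp-deficient GMP, against 72.4 and 5.64 in wild type GMP, with ratios of -0.28 and 0.19. These values do not give a direction. Tgm2, the tissue transglutaminase, is induced by retinoic acid in many cell types, myeloid cells among them. All 6 of its probe sets lay under the filter, with signals from 2.35 to 109 over the 4 arrays. Its brightest, 1417500_a_at, had 109 and 30.2 in Icsbp-deficient GMP, against 98.7 and 38.9 in wild type GMP, and the array types gave the same sign for 2 of the 6. Neither Rara nor Tgm2 was tested, and at this signal a small change or a fall could not be read.

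**Figure D2:**
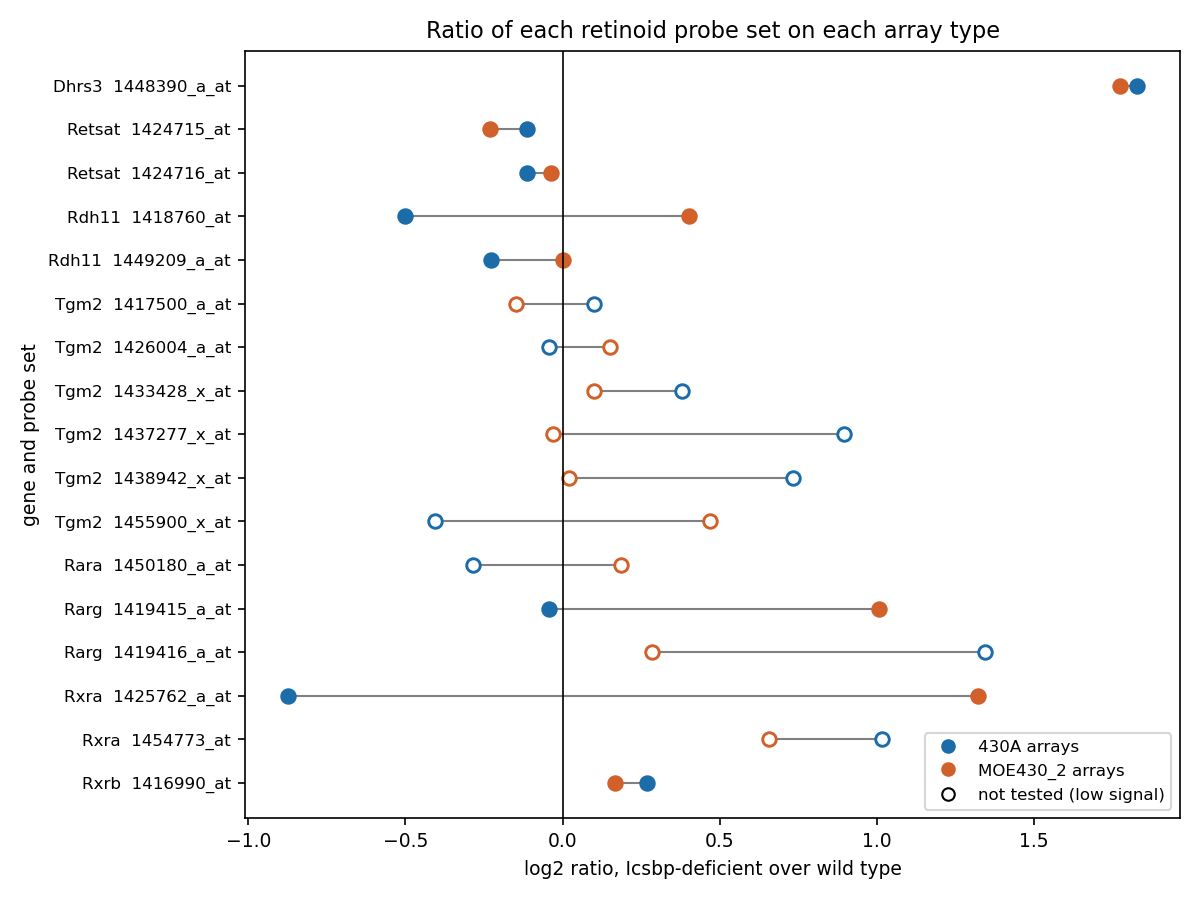
Log2 ratio of Icsbp-deficient over wild type for each shared probe set of the 8 genes, on the 430A and the MOE430_2 arrays, with a grey line joining the array types. Open circles were not tested for low signal. For Dhrs3 the array types lie at 1.83 and 1.77, and for the tested Rxra probe set at -0.87 and 1.32.

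Of the 5 tested genes other than Dhrs3, 0 passed limma's test, where 5.6% of all tested genes did, and 0 had an unadjusted p under 0.05. Of their 7 tested probe sets, 3 had ratios of the same sign on the 430A and MOE430_2 arrays, compared with 62.8% of all tested probe sets. A ratio that did not pass is not shown to be 0.

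Genes of the rest of the pathway were taken from 4 lists by role. Of 90 listed genes, 78 were on shared probe sets and 45 were tested. Of these 3 rose and 1 fell, together 8.89%, beside 5.6% of all tested genes, and their median log2 ratio was 0.05, beside -0.01 for all tested genes. At an unadjusted p under 0.05 there were 12 of the 45, beside 19.5% of all tested genes. The other 33, with signals under the filter, included the receptors Rarb and Rxrg, the retinoic acid hydroxylase Cyp26a1, the retinal dehydrogenases Aldh1a1, Aldh1a2 and Aldh1a3, the retinol acyltransferase Lrat and the retinol importer Stra6.

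Among genes of retinol uptake, binding and storage 1 of 9 rose and 1 fell, with a list median of 0.18. Together these were 22.2% of a list of 9, beside 5.6% of all tested genes. Fabp5, a fatty acid-binding protein that can also carry retinoic acid to the nucleus, had 1352 and 1776 in Icsbp-deficient GMP, against 2210 and 3993 in wild type GMP. It fell by 0.92 ± 0.14 SE on the log2 scale (limma adjusted p = 0.00556), and its second probe set fell by 1.25 ± 0.15 SE (limma adjusted p = 0.00169). Dgat1, an acyltransferase that makes triglycerides and can also make retinyl esters, had 1174 and 883 in Icsbp-deficient GMP, against 728 and 402 in wild type GMP, and rose by 0.85 ± 0.16 SE (limma adjusted p = 0.0137). Fabp5 was lower and Dgat1 higher in Icsbp-deficient GMP on both array types, where 62.8% of all tested probe sets had the same sign on both. Of the most strongly read genes that did not pass, the lipoprotein receptor Scarb1 was at -0.02 ± 0.13 SE (limma adjusted p = 0.961) and the lipase Pnpla2 at 0.53 ± 0.14 SE (limma adjusted p = 0.0608). Pnpla2 passed under 4 of the other settings, with limma adjusted p from 0.0382 to 0.0488.

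Among genes of retinol and retinal oxidation or reduction and of retinoic acid clearance 1 of 9 rose and 0 fell, with a median of -0.04. That is 11.1%, beside 5.6% of all tested genes. The riser was Rdh12, a retinal reductase best known from photoreceptors and closely related to Rdh11. It had 262 and 170 in Icsbp-deficient GMP, against 139 and 70.3 in wild type GMP, and rose by 0.80 ± 0.19 SE (limma adjusted p = 0.045). Its second probe set, under the filter, had ratios of 0.03 and 1.17. The most strongly read genes of this list were Adh5, an alcohol dehydrogenase, at -0.10 ± 0.12 SE (limma adjusted p = 0.731), Dhrs4 at -0.34 ± 0.15 SE (limma adjusted p = 0.262) and Rdh14 at 0.29 ± 0.17 SE (limma adjusted p = 0.411). Dhrs4 and Rdh14 are, like Dhrs3, reductases that act on retinal.

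Of 6 tested nuclear receptors, 0 passed limma's test, beside 5.6% of all tested genes. At an unadjusted p under 0.05 by limma there were 0, beside 19.5%. The ratios of the 6 ran from -0.01 to 0.28. The most strongly read were Thra, a thyroid hormone receptor, at 0.03 ± 0.15 SE (limma adjusted p = 0.934), the liver X receptor Nr1h3 at 0.04 ± 0.20 SE (limma adjusted p = 0.95) and the orphan receptor Nr4a1 at -0.01 ± 0.21 SE (limma adjusted p = 0.985). Of 21 corepressors and coactivators 1 rose and 0 fell, which is 4.76%, beside 5.6% of all tested genes, with a median of 0.05. Ncoa4, a coactivator that is also the receptor for the breakdown of ferritin, had 4557 and 6157 in Icsbp-deficient GMP, against 2721 and 5046 in wild type GMP, and rose by 0.51 ± 0.13 SE (limma adjusted p = 0.0479). Its second probe set did not pass, at 0.39 ± 0.11 SE (limma adjusted p = 0.0724). The methyltransferase Prmt1, at -0.33 ± 0.12 SE (limma adjusted p = 0.157), and the deacetylase Hdac1, at 0.12 ± 0.13 SE (limma adjusted p = 0.691), were the other strongly read coregulators.

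Of 31 listed genes other than the group that are known to be induced by retinoic acid, 25 were on shared probe sets and 14 were tested. Of the 14, 3 rose and 0 fell, which is 21.4%, beside 5.6% of all tested genes, and the median was 0.42. The other 11 lay under the filter. They were Cyp26a1, Rarb, Crabp2, Stra6, Hoxa5, Hoxb1, Rarres2, Itgax, Bhlhe40, Ube2l6 and Ifit3, so the share describes the 14 alone. The risers were Cybb at 1.17 ± 0.17 SE (limma adjusted p = 0.00404) and Ncf1 at 0.56 ± 0.12 SE (limma adjusted p = 0.0293), both subunits of the phagocyte oxidase, and the integrin Itgam at 0.76 ± 0.18 SE (limma adjusted p = 0.040). Itgam had 319 and 362 in Icsbp-deficient GMP, against 197 and 165 in wild type GMP. All 3 are also genes of maturing phagocytes. Uba7, which activates the ubiquitin-like protein Isg15, was at 0.46 ± 0.15 SE (limma adjusted p = 0.129), and Tnfaip2 at 0.44 ± 0.18 SE (limma adjusted p = 0.220). The second probe set of Tnfaip2 had ratios of 0.20 (430A) and -0.15 (MOE430_2), with a mean of 0.02 ± 0.16 SE (limma adjusted p = 0.955).

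**Figure D3:**
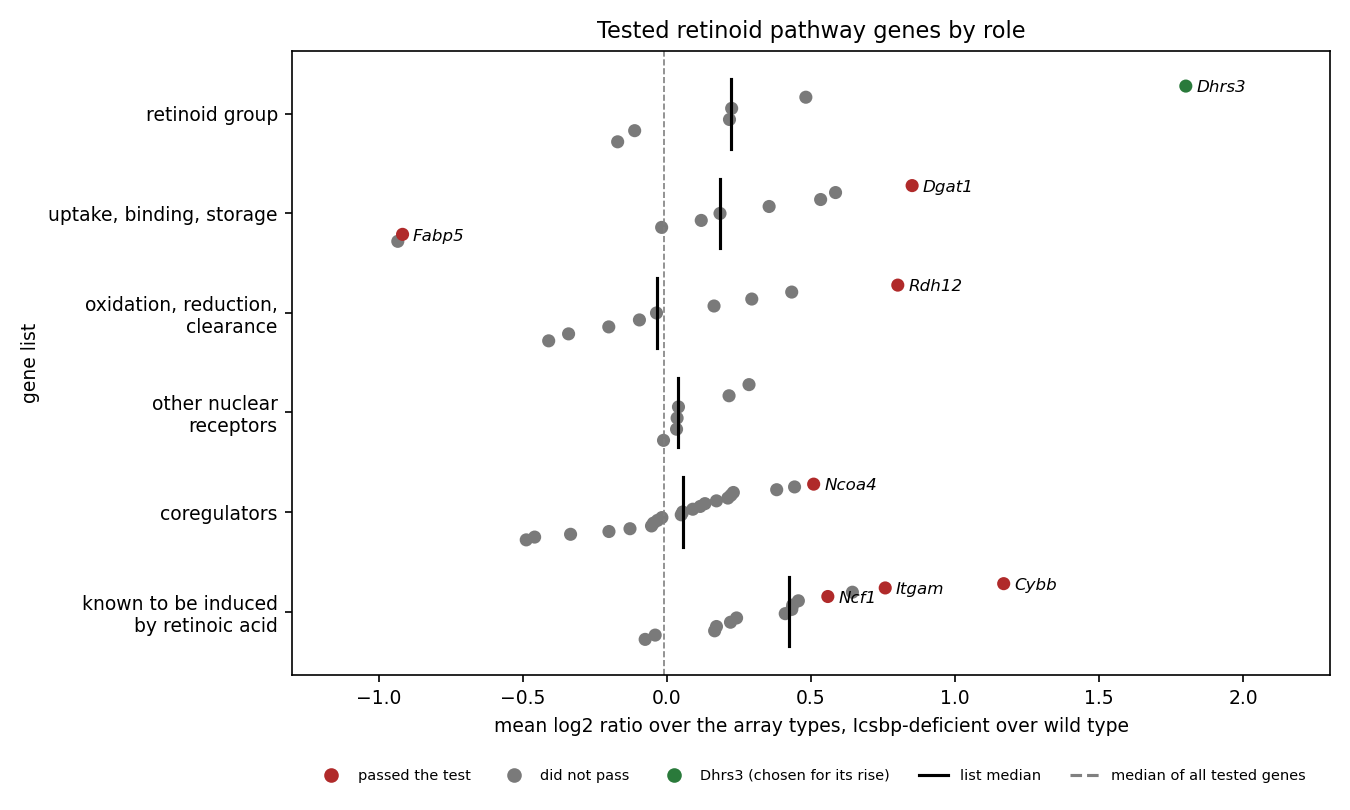
Mean log2 ratio over the array types for each tested gene, by list. Red points passed limma's test, grey points did not, and green is Dhrs3, which was chosen for its rise. Black bars are list medians and the dashed line is the median of all tested genes at -0.01.

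These pathway calls rest on the model. None of the 7 passed when array type was left out of it, and without the intensity trend in the variance 0 of the 45 pathway genes and 1 of the 14 induced genes passed. With an offset of 16, and also with no filter on low signal, the calls of Rdh12, Ncoa4 and Itgam ended, and with no filter that of Ncf1 did too. Fabp5 and Dgat1 kept theirs in both.

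The genes whose pair of ratios lay nearest to that of Dhrs3, by Euclidean distance over the 2 array types (4 arrays), were Rtp4, Cnn3 and Mapk13. Rtp4, a chaperone of membrane receptors that is induced by interferon, had ratios of 1.82 and 1.87 on the 430A and MOE430_2 arrays (distance 0.0987). Cnn3, an actin-binding calponin, had 1.91 and 1.67 (distance 0.131). Mapk13, the delta form of the p38 kinases, had 1.90 and 1.63 (distance 0.157). They share the arrays and, at the offset used for these ratios, the size of the log2 ratio. For Rtp4 and Mapk13 that size depended on the offset. At an offset of 16 their mean log2 ratios were 2.51 and 2.52, against 1.96 for Dhrs3 and 1.84 for Cnn3. At an offset of 100 they were 1.36 and 1.28, against 1.61 for Dhrs3 and 1.72 for Cnn3. In wild type GMP the signal of Rtp4 was 15.1 and 43.4 (430A, then MOE430_2), and that of Mapk13 7.45 and 45.4.

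Markers of GMP themselves were read on every array, with 10 of 10 above the filter and a summed signal of 77712 (430A) and 124427 (MOE430_2) in Icsbp-deficient GMP, against 76297 and 116914 in wild type GMP. Most of that sum came from the granule protein genes Mpo, Ctsg, Elane and Prtn3, none of which passed limma's test. Of the 10 markers 2 rose and 1 fell, beside 5.6% of all tested genes. The Fc receptor gene Fcgr3 rose by 1.00 ± 0.11 SE on the log2 scale (limma adjusted p = 0.000776) and the myeloid transcription factor gene Cebpa by 0.69 ± 0.12 SE (limma adjusted p = 0.0117). The progenitor surface marker Cd34 had 818 and 819 in Icsbp-deficient GMP, against 2623 and 3062 in wild type GMP, and fell by 1.73 ± 0.13 SE (limma adjusted p = 0.000134). Most markers of maturing neutrophils were higher in Icsbp-deficient GMP, the direction for which Dhrs3 was chosen. Of 11 on the arrays 9 rose and 0 fell, and their summed signal was 34833 and 63114 in Icsbp-deficient GMP, against 11944 and 22662 in wild type GMP. No marker of that list was under the filter, and its part in the level of Dhrs3, Cybb, Ncf1 and Itgam was not tested. Monocyte markers split, with 3 of 9 rising and 4 falling, with sums of 16454 and 22471 in Icsbp-deficient GMP, against 11915 and 18045 in wild type GMP. The largest part of each monocyte sum came from F13a1, 1 of the 3 that rose. It had 9735 and 13510 in Icsbp-deficient GMP, against 4917 and 8437 in wild type GMP. Of the 12 basophil, mast cell and eosinophil markers on the arrays 8 were tested and all 8 fell. The other 4, Ccr3, Cma1, Il5ra and Tpsb2, lay under the filter, with mean ratios from 0.04 to 0.17. Fcer1a, with 52.1 and 25.2 in Icsbp-deficient GMP against 233 and 380 in wild type GMP, passed the filter through the wild type arrays. So did Ms4a2 (128 and 36.0 in Icsbp-deficient GMP), the monocyte markers Ly86 (16.1 and 9.71) and Klf4 (56.6 and 34.3), and the erythroid marker Car1 (43.8 and 2.35). The falls counted for these lists include such genes. Over all 12 basophil, mast cell and eosinophil markers the sums were 2421 and 2375 in Icsbp-deficient GMP, against 6519 and 8965 in wild type GMP. Erythroid and megakaryocyte markers fell in 3 of 7 tested cases, with Hba-a1 and Pf4 under the filter, B cell markers passed in 0 of 3 by limma's test (2 at an unadjusted p under 0.05, with Cd79a, Ms4a1, Pax5 and Ebf1 under the filter), and the 5 T and natural killer cell markers on the arrays all lay under the filter.

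**Figure D4:**
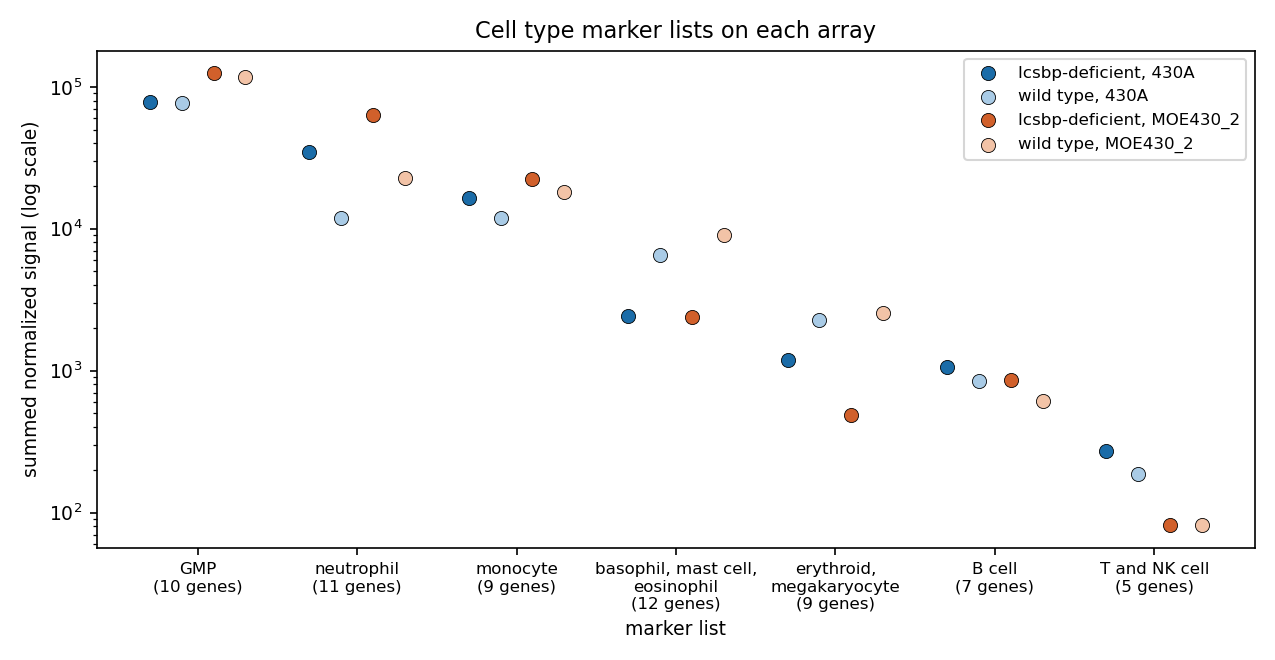
Summed normalized signal (log scale) of the markers of 7 cell types on each of the 4 arrays, with the Icsbp-deficient array left of the wild type array of its type. The neutrophil sum is higher in Icsbp-deficient GMP on both array types, at 34833 against 11944 and 63114 against 22662.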

How the data were processed

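Expression was read on Affymetrix arrays. The deposited files hold a linear intensity for each probe set. Per the submitters' processing notes, GCOS was used for the MOE430_2 arrays. Its settings, and the software used for the 430A arrays, are not given in the notes used here. Over shared probe sets the deposited intensity had a 2% trimmed mean of 167 on the Icsbp-deficient and 498 on the wild type 430A array, and 159 and 160 on the MOE430_2 arrays, so the 430A arrays were not on a common scale.

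Of 22690 shared probe sets, 64 controls were left out. Signals were scaled to a trimmed mean of 500 on every array, an offset of 50 was added before log2, and quantile normalization was done within each type. Probe sets with a mean under the 40th percentile were not tested, which left 13576. limma 3.58.1 in R 4.3.3 fitted genotype with array type as a block (lmFit, then eBayes with an intensity trend), which leaves 1 residual degree of freedom to which 8.89 prior degrees were added. The threshold was an adjusted p of 0.05. The step was run on simulated data with the same spread for every probe set. Changes were planted there only in brighter probe sets, so the run does not check calls at low signal. The number of arrays limits the precision.

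Gene names are those of the platform annotation, updated through RefSeq (GRCm38.p6), which matched 20351 of the 20380 probe sets with 1 symbol. Another 691 had several symbols and 1555 had none, and these were named as no gene. Where a gene had several tested probe sets, the one of highest mean signal stood for it. Named genes are the 8 members, the called genes and the 3 genes of highest signal in each retinoid list, the 3 nearest to Dhrs3, and Irf8. The second probe sets given beside them, and the untested genes listed by name, were chosen after their values were seen. The members and lists were chosen with earlier results of these data known. Each array carries RNA of a separate preparation per the series' design text, which also describes a further Icsbp-deficient preparation that is not analysed here. Alternatives were other normalizations, offsets, filters and variance models, no block, and each array left out.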

Additional observations from a re-analysis of the deposited data

How the results depend on the processing

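The log2 ratio of Dhrs3 was 1.61 with an offset of 100 and 1.96 with an offset of 16. With the values as deposited it was 0.89, where the median of all probe sets lay at -0.98 on the 430A arrays, so it stood 1.37 above the median of the mean ratios. Of the 5 other tested members, Rarg and Rxra were not tested under the 60th percentile filter. Where tested under the 9 alternatives, 0 of the 5 passed, with limma adjusted p of at least 0.298, and 0 had an unadjusted p under 0.05. With array type not in the model (no replicate block) and the 4 arrays normalized together, 2 probe sets, 0 pathway genes and 0 genes known to be induced by retinoic acid passed limma's test (586, 4 and 4 at an unadjusted p under 0.05), against 696, 4 and 3 with the block. The values as deposited gave 0, 0 and 0 (28, 0 and 0 unadjusted), no filter 266, 2 and 1, and no intensity trend 267, 0 and 1 (2299, 13 and 6 unadjusted), while an offset of 16 gave 2 pathway genes. Adjustment over 1 probe set a gene, added after seeing the data, changed none of the member or list counts. Leaving out each array in the model without the block gave 17 to 85 probe sets and 0 genes of either list by limma, the lone array of a genotype being assumed to vary like the others. Outside that model, the array type that keeps both arrays gives the ratios already stated for it, such as 1.77 or 1.83 for Dhrs3. The values as deposited turned the direction of Rarg (-0.29), Rxra (-0.61), Rxrb (-0.55), Pnpla2 (-0.26), Rdh14 (-0.42), Thra (-0.67), Nr1h3 (-0.49), Ncoa4 (-0.24), Hdac1 (-0.66), Ncf1 (-0.21), Uba7 (-0.29), Tnfaip2 (-0.29) and the second Irf8 probe set (-0.72), all beside that shifted median. Under the 60th percentile filter Rdh12, Itgam, Nr1h3, Nr4a1, Rtp4 and Mapk13 were not tested either. Low signal kept Rara and Tgm2 from the test.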
